A study of Homo sapiens with 8 samples.

Results

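Aminoacyl-tRNA synthetases join each amino acid to its transfer RNA. The 35 genes described here encode 19 cytosolic enzymes or enzyme subunits and 16 mitochondrial enzymes, of 18417 genes measured. They were chosen by name from the platform annotation, 1 probe set per gene and, for the 2 genes with several probe sets (VARS1 and VARS2), the one with the highest mean over all arrays. All 35 were measured. The arrays hold RNA of U373, an established human astrocytoma line. The cells were kept for 24 h in medium with 5% hormone-free serum and then treated for 12 h. There were 4 groups: 10 nM progesterone together with 1 µM RU-486 (mifepristone, an antagonist of the progesterone and glucocorticoid receptors), 1 µM RU-486 alone, 10 nM progesterone alone, and vehicle. Each group had 2 arrays, 8 in all, and the labels call the 2 biological replicates without naming separate cultures. The p-values therefore speak of the spread among these arrays, which may be technical. All groups share 1 cell line, so nothing here speaks of other astrocytomas or of normal astrocytes.

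Protein synthesis in the cytosol and in mitochondria is served by separate sets of synthetases, and both sets are encoded in the nucleus. GARS1 and KARS1 each supply an enzyme to both compartments, EPRS1 charges both glutamate and proline in the cytosol, and phenylalanine in the cytosol needs the paired subunits FARSA and FARSB. When amino acids run short, uncharged transfer RNA activates the kinase GCN2 (EIF2AK4), translation of the transcription factor ATF4 rises, and ATF4 binds CARE elements (C/EBP-ATF response elements) near its target genes, among which several cytosolic synthetase genes are counted.

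A CARE core was read here as TGATGNAA, or TTNCATCA on the other strand, and it was searched on both strands in the 300 bases from 250 before to 50 after each RefSeq transcription start (GRCh38.p14). A window was found for 30 of the 35 genes, 16 cytosolic and 14 mitochondrial. LARS1, VARS1, YARS1, AARS2 and VARS2 had none. The core was in the windows of 7 of the 16 cytosolic genes (AARS1, CARS1, GARS1, IARS1, MARS1, NARS1 and TARS1) and of 1 of the 14 mitochondrial genes (YARS2). Over all 27305 genes with a window, 4.46% held it. The form TGATGCAA, which is contained in the first motif, was in 6 of the 16 cytosolic windows and 0 of the 14 mitochondrial ones, and 1.08% of all genes held it. The 30 bases around each match are printed with the match in capitals, 5′ to 3′ on the strand of the gene. The search fixed every base of a match but the N, so the likeness of the matches was set by the search. ASNS and CHAC1, genes of the amino acid response described further on, are added for comparison.
AARS1, minus strand, chr16:70289675-70289704: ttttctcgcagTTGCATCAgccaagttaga
CARS1, minus strand, chr11:3057407-3057436: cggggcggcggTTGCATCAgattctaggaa
GARS1, plus strand, chr7:30594834-30594863: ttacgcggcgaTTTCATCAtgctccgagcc
IARS1, minus strand, chr9:92293692-92293721: ttttcagcgcgTTGCATCAcctccgtgcgc
MARS1, plus strand, chr12:57488053-57488082: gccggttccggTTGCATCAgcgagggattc
NARS1, minus strand, chr18:57621804-57621833: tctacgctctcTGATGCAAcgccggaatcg
TARS1, plus strand, chr5:33440956-33440985: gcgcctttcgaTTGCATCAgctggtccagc
YARS2, minus strand, chr12:32756076-32756105: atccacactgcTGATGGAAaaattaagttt
ASNS, minus strand, chr7:97872458-97872487: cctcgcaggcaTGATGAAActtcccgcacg
CHAC1, plus strand, chr15:40953251-40953280: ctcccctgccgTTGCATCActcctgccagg

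In 5 of the 7 cytosolic genes the match read TTGCATCA on the strand of the gene, in GARS1 it read TTTCATCA, and in NARS1 it lay in the forward direction. Counted from the start site, the match began at -187 in AARS1, -33 in GARS1, -13 in IARS1, -4 in MARS1, -2 in CARS1, 3 in TARS1 and 15 in NARS1. In YARS2 it began at -197. CARS1, GARS1 and TARS1 have 2 windows each, and the match of GARS1 and of TARS1 was in that of their second listed start. The 250 bases before the start are given for AARS1 (chr16:70289507-70289756, minus strand) and IARS1 (chr9:92293698-92293947, minus strand), as examples of a distant and a near match. The first has 59.2% G and C and the second 62.0%.
AARS1: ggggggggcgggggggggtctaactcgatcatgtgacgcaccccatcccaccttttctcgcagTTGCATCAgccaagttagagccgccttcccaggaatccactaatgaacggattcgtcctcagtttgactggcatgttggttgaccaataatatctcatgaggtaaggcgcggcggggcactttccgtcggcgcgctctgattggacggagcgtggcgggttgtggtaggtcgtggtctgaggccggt
IARS1: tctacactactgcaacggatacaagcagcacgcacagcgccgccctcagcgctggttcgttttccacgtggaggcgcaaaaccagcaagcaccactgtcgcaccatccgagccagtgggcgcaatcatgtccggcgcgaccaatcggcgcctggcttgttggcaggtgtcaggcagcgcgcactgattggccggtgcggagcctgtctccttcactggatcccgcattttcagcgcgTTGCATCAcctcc

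The expression values are log2 units deposited by the authors after normalisation, 1 per probe set and array, and differences are differences of log2 values. They were tested with limma on all 18417 genes, with p-values adjusted by Benjamini-Hochberg over all genes and a call at an adjusted p under 0.05. The average RU-486 effect is the mean of the 4 arrays with RU-486 minus the mean of the 4 without it, progesterone being present in 2 of each 4. Array medians ran from 6.93 to 7.02. The lowest value of any synthetase gene on any array was 7.40, above 6.22, the 95th percentile of 341 olfactory receptor genes that stand for background. Of 10 astrocyte and glioma markers 8 lay above that level, AQP4 and ALDH1L1 did not, and of 5 microglia and leukocyte markers 0 did. 4 of 5 neuron, 2 of 4 measured oligodendrocyte and 1 of 4 endothelium markers lay above it too. The mean level of the oligodendrocyte list was 6.25 and 6.32 in the combination, 6.20 and 6.22 after RU-486, 6.17 and 6.64 after progesterone and 6.02 and 6.15 in vehicle, and its part in the results was not tested. The mean level of the microglia list was 5.03 and 5.07 in the combination, 4.98 and 5.00 after RU-486, 5.05 and 5.16 after progesterone and 4.89 and 4.96 in vehicle. Replicates of all genes differed with an SD of 0.17 log2 units in the combination, 0.16 after RU-486, 0.35 after progesterone and 0.18 in vehicle, so the progesterone pair was the least alike. In bulk RNA of this kind, a difference in every cell and a larger one in some of the cells cannot be told apart.

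Among the cytosolic enzymes, 8 genes (YARS1, GARS1, CARS1, AARS1, SARS1, WARS1, MARS1 and IARS1) were higher on each of the 4 arrays with RU-486 than on any of the 4 without it, termed separate arrays here. Their average RU-486 effects ran from 1.29-fold for IARS1 to 1.65-fold for YARS1, and 0 of the 35 genes passed an adjusted p of 0.05 in limma. Over all genes 0.0326% passed it, 6 genes in all. An unadjusted p under 0.05 with a higher mean was found for 9 of the 19 cytosolic genes and 1 of the 16 mitochondrial ones, against 6.53% of all genes. The arrays were separate upwards for 8 of 19 and 1 of 16 genes, against 4.51% of all genes, and separate downwards for 0 of the 35, against 1.09%. The median difference was 0.12 over the cytosolic genes, 0.09 over the mitochondrial genes and 0.03 over all genes. 18 of the 19 cytosolic and 16 of the 16 mitochondrial genes lay above 0, as did 62.5% of all genes.

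YARS1, the tyrosyl-tRNA synthetase, had 11.30 and 11.09 in the combination and 10.83 and 10.97 after RU-486, against 10.33 and 10.16 after progesterone and 10.47 and 10.32 in vehicle. The lowest array with RU-486 stood clear of the highest without it, and the 2 combination arrays were the highest of all. Its average RU-486 effect was 0.73 ± 0.08 (SE), 1.65-fold, with an adjusted p of 0.0730 in limma, and by p it ranked 10th of all 18417 genes.

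GARS1, the glycyl-tRNA synthetase of both compartments, had 12.25 and 12.30 in the combination and 12.15 and 12.33 after RU-486, against 11.74 and 11.65 after progesterone and 11.85 and 11.72 in vehicle. CARS1, which charges cysteine, had 9.22 and 9.14 in the combination and 8.86 and 9.06 after RU-486, against 8.54 and 8.38 after progesterone and 8.61 and 8.50 in vehicle. AARS1, which charges alanine, had 11.64 and 11.55 in the combination and 11.41 and 11.61 after RU-486, against 11.09 and 10.85 after progesterone and 11.05 and 10.96 in vehicle. In all of these genes the arrays with and without RU-486 formed separate ranges, and in GARS1 and AARS1 the arrays with RU-486 alone overlapped those of the combination. The average RU-486 effect was 0.52 ± 0.07 for GARS1, 0.56 ± 0.07 for CARS1 and 0.56 ± 0.08 for AARS1 (SE). The adjusted p in limma was 0.112 for GARS1 and CARS1 and 0.144 for AARS1.

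SARS1, the seryl-tRNA synthetase, had 11.01 and 10.99 in the combination and 10.78 and 10.96 after RU-486, against 10.55 and 10.45 after progesterone and 10.57 and 10.49 in vehicle. WARS1, the tryptophanyl-tRNA synthetase, known also as an interferon-induced gene, had 12.08 and 12.06 in the combination and 11.84 and 12.01 after RU-486, against 11.56 and 11.48 after progesterone and 11.70 and 11.59 in vehicle. Progesterone and vehicle arrays overlapped for SARS1, while for WARS1 both progesterone arrays lay below both vehicle arrays. Arrays with RU-486 averaged higher by 0.42 ± 0.06 for SARS1 and 0.41 ± 0.07 for WARS1 (SE), 1.34-fold and 1.33-fold. Neither passed the threshold in limma, where the adjusted p was 0.172 for SARS1 and 0.174 for WARS1.

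MARS1, which charges methionine on both the initiator and the elongator transfer RNA, had 11.56 and 11.39 in the combination and 11.29 and 11.40 after RU-486, against 11.04 and 10.78 after progesterone and 11.09 and 10.94 in vehicle. IARS1, which charges isoleucine, had 11.63 and 11.76 in the combination and 11.60 and 11.82 after RU-486, against 11.27 and 11.32 after progesterone and 11.37 and 11.38 in vehicle. For IARS1 the 2 vehicle arrays were almost equal, and the arrays with RU-486 alone spanned those of the combination. The mean with RU-486 was higher by 0.44 ± 0.08 for MARS1 and 0.36 ± 0.07 for IARS1 (SE), with an adjusted p of 0.267 in limma for each. Within the RU-486 group, replicate 2 was above replicate 1 in 8 of these 8 genes and in 28 of all 35. It was above in 2 of the 8 in the combination, 1 after progesterone and 1 in vehicle. Of all 35, the counts in those groups were 8, 13 and 14.

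**Figure D1:**
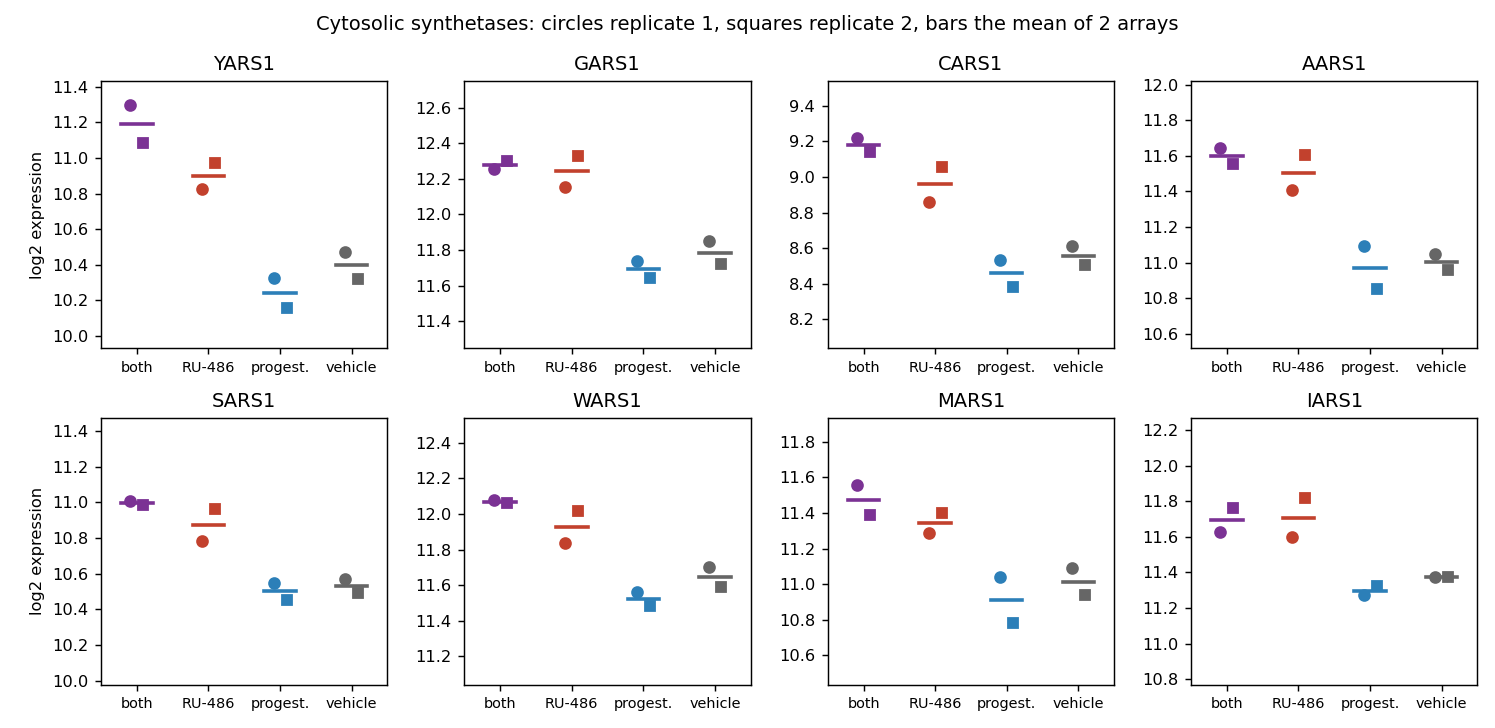
Log2 expression (vertical axes) of the 8 cytosolic synthetase genes whose arrays with and without RU-486 do not overlap, in the combination, RU-486, progesterone and vehicle groups; circles are replicate 1, squares replicate 2 and bars the mean of 2 arrays. In each panel the 4 arrays on the left lie above the 4 on the right, as for YARS1 with 10.83 as the lowest array with RU-486 and 10.47 as the highest without.

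Whether these genes passed depended on how the spread was modelled and, as described further on, on single arrays. Without progesterone replicate 1, the same 8 genes passed in limma, 7 with an adjusted p of 0.0403 and IARS1 with 0.0492, while 1.42% of all genes passed with a higher mean. With a trended and robust prior for the spread, YARS1, GARS1, AARS1, WARS1, CARS1 and SARS1 passed, with adjusted p between 0.00729 and 0.0267, against 0.201% of all genes. With dim genes left out, YARS1 alone of the 35 passed, with an adjusted p of 0.0468, against 0.0824% of the 13343 genes then tested. No synthetase gene passed for this effect with a replicate block, quantile normalisation, median centring, the mean of a gene's probe sets or array weights. Over all alternatives the average RU-486 effect of YARS1 ran from 0.67 to 0.78 and that of IARS1 from 0.31 to 0.42.

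The other 11 cytosolic genes had overlapping arrays. TARS1, the threonyl-tRNA synthetase, came nearest, with an average RU-486 effect of 0.23 ± 0.07 (SE) and an adjusted p of 0.421 in limma. It had 10.65 and 10.76 in the combination and 10.70 and 10.90 after RU-486, against 10.43 and 10.42 after progesterone and 10.58 and 10.67 in vehicle. One combination array thus lay below the higher vehicle array. Smaller average RU-486 effects were 0.12 for FARSB, 0.09 for VARS1, 0.08 for FARSA, 0.07 for RARS1, KARS1, HARS1 and QARS1, 0.04 for NARS1 and 0.03 for LARS1. The upper 95% limit of limma's interval was at most 0.28 for each of the genes with overlapping arrays other than TARS1. These upper limits ran from 0.14 for EPRS1 to 0.28 for VARS1. An average effect as large as the 0.36 estimated for IARS1 thus lay outside each of these intervals. Smaller effects up to a gene's own limit did not. The genes were set apart by overlap on this same effect, which favours low limits. The limits are therefore no separate evidence of a weaker response. With the combination set against progesterone alone, the upper limit reached 0.49 for FARSB. With RU-486 alone set against vehicle, it reached 0.42 for EPRS1. The interval of IARS1 itself ran from 0.20 to 0.53.

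EPRS1, which charges glutamate and proline, was the 1 cytosolic gene with a lower mean with RU-486, by -0.14 ± 0.12 (SE; adjusted p 0.682 in limma). It had 10.45 and 10.72 in the combination and 10.85 and 11.14 after RU-486, against 10.72 and 11.06 after progesterone and 10.85 and 11.08 in vehicle. Replicate 2 was above replicate 1 in all 4 groups, by 0.27 in the combination, 0.29 after RU-486, 0.34 after progesterone and 0.23 in vehicle. Both combination arrays lay below both arrays of RU-486 alone, while they overlapped those of progesterone alone by little.

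The 8 genes with separate arrays were spread over several of the enzymes' structural groups. Of the 7 enzymes held in the multisynthetase complex (EPRS1, IARS1, KARS1, LARS1, MARS1, QARS1 and RARS1), 2 had separate arrays, and the median average RU-486 effect was 0.07. Of the 12 others, 6 had separate arrays, with a median of 0.32. By catalytic fold, 5 of the 9 class I enzymes and 3 of the 9 class II enzymes had separate arrays, with medians of 0.36 and 0.12. EPRS1 holds both folds and was counted in neither. Over all genes, 4.51% had arrays separate upwards. These groupings were made after the values were seen and were not tested. Of the 7 genes with separate arrays and a promoter window, 5 held the CARE core shown above (AARS1, CARS1, GARS1, IARS1 and MARS1), and of the 9 genes with overlapping arrays and a window, 2 did (NARS1 and TARS1). Over all genes with a window 4.46% held the core, and this split was not tested either. A match describes the letters of the window and is not evidence of binding.

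The average RU-486 effects of the mitochondrial enzymes ran from 0.04 for IARS2 to 0.15 for LARS2. The median was 0.08 over the 15 mitochondrial genes with overlapping arrays and 0.07 over the 11 such cytosolic genes. Overlap was read from this same effect and leaves out the largest cytosolic values, so these 2 medians do not compare the classes. Over each whole class the median was 0.09 for the mitochondrial and 0.12 for the cytosolic genes. Both were 0.10 after quantile normalisation, and the cytosolic one was the higher under every other alternative, by the least without RU-486 replicate 2 (0.10 against 0.09). LARS2, which charges leucine, had 9.73 and 9.65 in the combination and 9.53 and 9.57 after RU-486, against 9.42 and 9.40 after progesterone and 9.56 and 9.52 in vehicle. The 2 combination arrays were the highest and the 2 progesterone arrays the lowest, and the arrays of RU-486 alone overlapped those of vehicle. Its average RU-486 effect was 0.15 ± 0.05 (SE), with an unadjusted p of 0.0292 and an adjusted p of 0.434 in limma. SARS2, the mitochondrial seryl-tRNA synthetase, was the 1 mitochondrial gene with separate arrays, with 9.59 and 9.44 in the combination and 9.40 and 9.45 after RU-486, against 9.40 and 9.28 after progesterone and 9.38 and 9.30 in vehicle. Its average RU-486 effect was 0.13 ± 0.06 (SE; adjusted p 0.482 in limma), and its nearest arrays with and without RU-486 were equal to the 2 decimals given.

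YARS2, which charges tyrosine, had 7.96 and 7.87 in the combination and 7.95 and 7.92 after RU-486, against 7.68 and 7.77 after progesterone and 7.87 and 7.89 in vehicle. FARS2, which charges phenylalanine, had 9.54 and 9.35 in the combination and 9.34 and 9.36 after RU-486, against 9.08 and 9.16 after progesterone and 9.50 and 9.32 in vehicle. NARS2, which charges asparagine, had 9.53 and 9.60 in the combination and 9.50 and 9.59 after RU-486, against 9.31 and 9.42 after progesterone and 9.57 and 9.47 in vehicle. In these 3 genes the progesterone arrays were the lowest, and vehicle arrays overlapped those of RU-486 alone or of the combination. With RU-486 the mean was higher by 0.12 for YARS2, 0.13 for FARS2 and 0.11 for NARS2. The other 11 lay between 0.04 and 0.11: CARS2, EARS2, PARS2, HARS2, TARS2, VARS2, WARS2, AARS2, RARS2, MARS2 and IARS2. The upper 95% limit of limma's interval was at most 0.31 for each of the 16 mitochondrial genes.

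**Figure D2:**
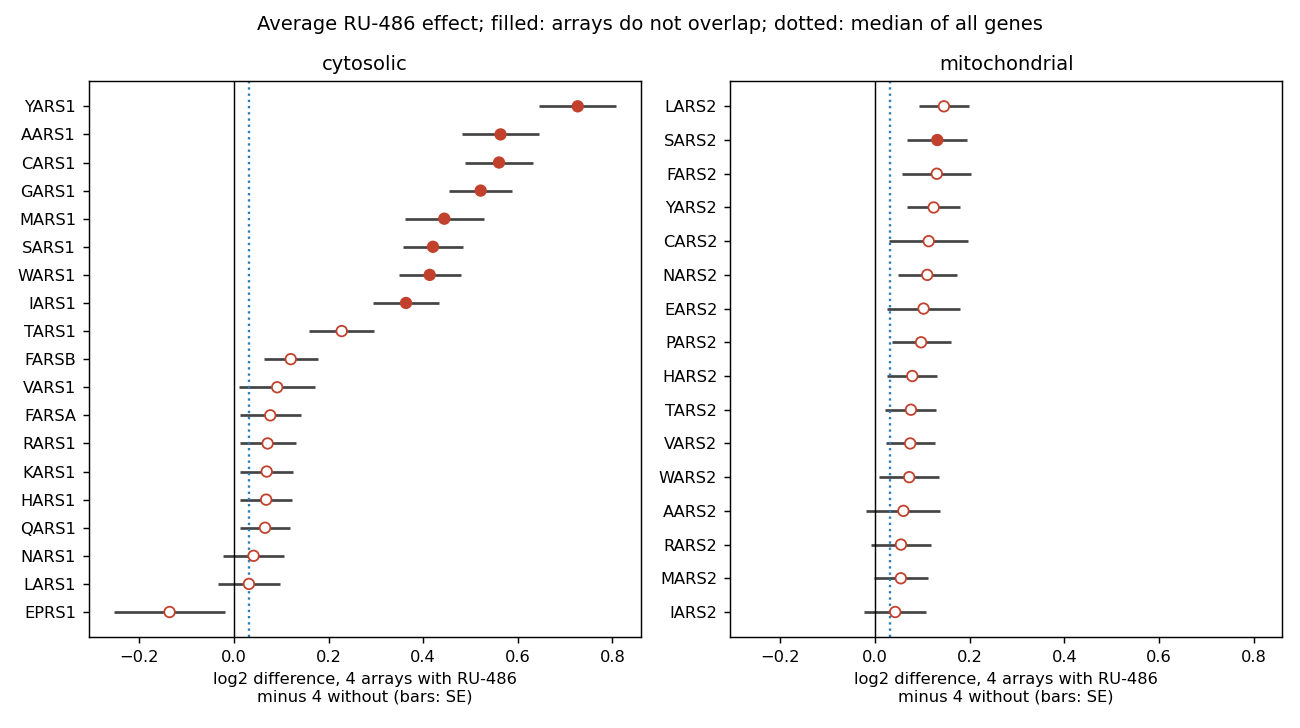
Average RU-486 effect (log2 difference, 4 arrays with RU-486 minus 4 without; bars are SE) of the 19 cytosolic (left) and 16 mitochondrial (right) genes; filled points mark genes whose arrays do not overlap and the dotted line the median of all genes. 8 cytosolic genes reach from 0.36 to 0.73, whereas the mitochondrial genes lie between 0.04 and 0.15.

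For 15 pairs, the cytosolic and the mitochondrial enzyme of the same amino acid could be set against each other on the same arrays (FARSA and FARSB both with FARS2, so that 2 pairs share a gene). The difference cytosolic minus mitochondrial of the average RU-486 effects was 0.60 for tyrosine, 0.50 for alanine, 0.45 for cysteine, 0.39 for methionine, 0.34 for tryptophan, 0.32 for isoleucine and 0.29 for serine. In these 7 pairs the log ratio of the 2 enzymes was higher on all 4 arrays with RU-486 than on all 4 without it. Each had a two-sided exact permutation p of 0.0286, the smallest that 4 against 4 arrays allow. After Benjamini-Hochberg adjustment over the 15 pairs it was 0.0612, which does not pass 0.05. No pair could have passed unless more than 7 of the 15 had this smallest p, so the adjusted value decides nothing here. The permutation did not keep arrays with and without progesterone apart. The cytosolic enzymes of these 7 pairs all had separate arrays themselves, so the separate ratios are no independent evidence. TARS1 and TARS2 differed by 0.15 (exact permutation p 0.2). For the other 7 pairs the difference lay between -0.11 for leucine and 0.02 for valine and arginine, with overlapping arrays.

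HARS1 and HARS2, the cytosolic and mitochondrial histidyl-tRNA synthetase genes, lie head to head, with start sites 85 bases apart and promoter windows that share 184 bases. Their average RU-486 effects were 0.07 and 0.08, and the pair's difference was -0.01.

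**Figure D3:**
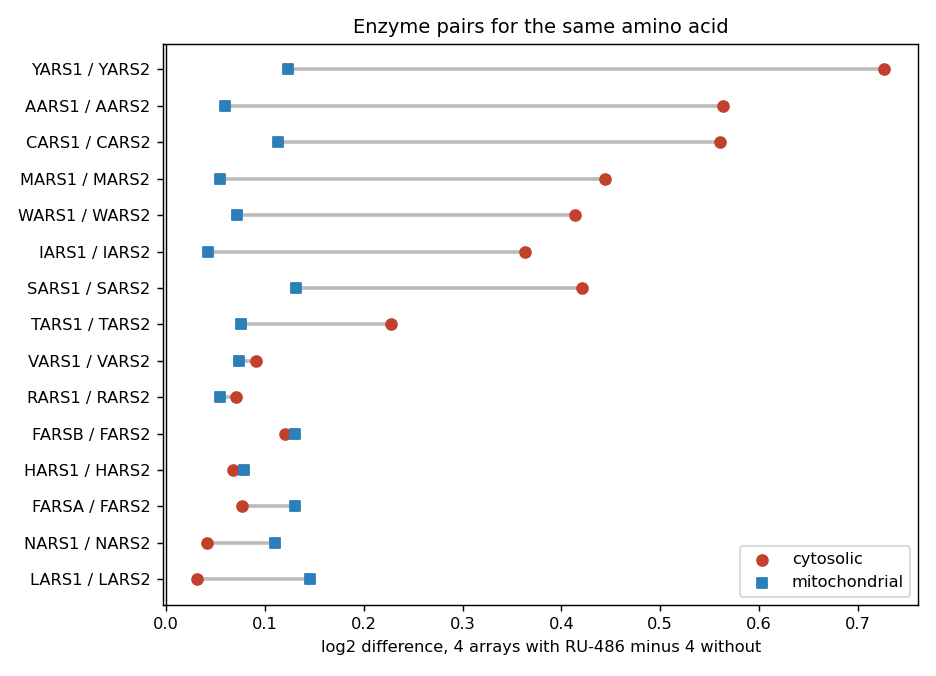
Average RU-486 effect (log2 difference, 4 arrays with RU-486 minus 4 without) of the cytosolic (circles) and mitochondrial (squares) enzyme for each of 15 pairs. Lines join a pair; the gap is widest for YARS1 and YARS2 at 0.60, and in LARS1 and LARS2 the mitochondrial gene lies to the right.

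RU-486 was also compared with its absence separately in the presence and in the absence of progesterone. Against progesterone alone, the combination had 10 of 19 cytosolic and 4 of 16 mitochondrial genes (LARS2, FARS2, YARS2 and HARS2) at an unadjusted p under 0.05 with a higher mean, against 10.1% of all genes. No gene of the 18417 passed the adjusted threshold in limma (0%), the smallest adjusted p of a synthetase gene being 0.152 for YARS1, whose difference was 0.95 ± 0.11 (SE). The median was 0.28 over the cytosolic genes, 0.18 over the mitochondrial genes and 0.03 over all genes, and 18 of 19, 16 of 16 and 56.7% lay above 0. The arrays were separate upwards for 15 of 19 and 14 of 16 genes, against 28.1% of all genes. Without progesterone replicate 1, 7 of the 8 genes named above passed (adjusted p 0.0427 to 0.0428), IARS1 being the exception, while 1.67% of all genes passed with a higher mean. With the trended and robust prior YARS1, GARS1 and WARS1 passed, against 0.0923% of all genes.

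Against vehicle, RU-486 alone had 8 of 19 cytosolic and 0 of 16 mitochondrial genes at an unadjusted p under 0.05 with a higher mean, against 2.15% of all genes. No gene passed the adjusted threshold in limma (0%). YARS1 and AARS1 differed by 0.50, GARS1 by 0.46, CARS1 by 0.40, SARS1 by 0.34, IARS1 and MARS1 by 0.33 and WARS1 by 0.28. The median was 0.05 over the cytosolic genes, -0.01 over the mitochondrial genes and 0.01 over all genes. The cytosolic median was 0.18 without RU-486 replicate 1, 0.15 without vehicle replicate 2 and 0.10 without vehicle replicate 1, and the mitochondrial one was 0.03 without vehicle replicate 1. 16 of 19, 7 of 16 and 55.3% lay above 0, and the mitochondrial count was 13 of 16 after quantile normalisation of the deposited values and between 4 and 10 with single arrays left out. The arrays were separate upwards for 9 of 19 and 3 of 16 genes, against 24% of all genes.

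Progesterone alone gave lower means than vehicle for most synthetase genes. 17 of the 19 cytosolic and 14 of the 16 mitochondrial genes lay below 0, while 51.2% of all genes lay above it. No gene passed the adjusted threshold in limma (0%), and FARS2 alone of the 35 had a lower mean with an unadjusted p under 0.05, against 2.45% of all genes, with a difference of -0.29, an unadjusted p of 0.0273 and an adjusted p of 0.741. The arrays were separate downwards for 5 of 19 and 8 of 16 genes, against 15.8% of all genes. The median was -0.08 over the cytosolic genes, -0.09 over the mitochondrial genes and 0.00 over all genes. After quantile normalisation 7 of 19 and 4 of 16 genes lay above 0, against 2 of 19 and 2 of 16 as deposited. Without progesterone replicate 2 those counts were 6 of 19 and 6 of 16, with medians of -0.02 and -0.12, and without progesterone replicate 1 the cytosolic median was -0.12. RU-486 alone, progesterone alone and the combination were all set against the same vehicle arrays, so their differences are not independent of each other.

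In the combination against vehicle, 8 of 19 cytosolic and 0 of 16 mitochondrial genes had an unadjusted p under 0.05 with a higher mean, against 6.92% of all genes, and no gene passed the adjusted threshold in limma (0%). The median was 0.14 over the cytosolic genes, 0.10 over the mitochondrial genes and 0.07 over all genes.

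**Figure D4:**
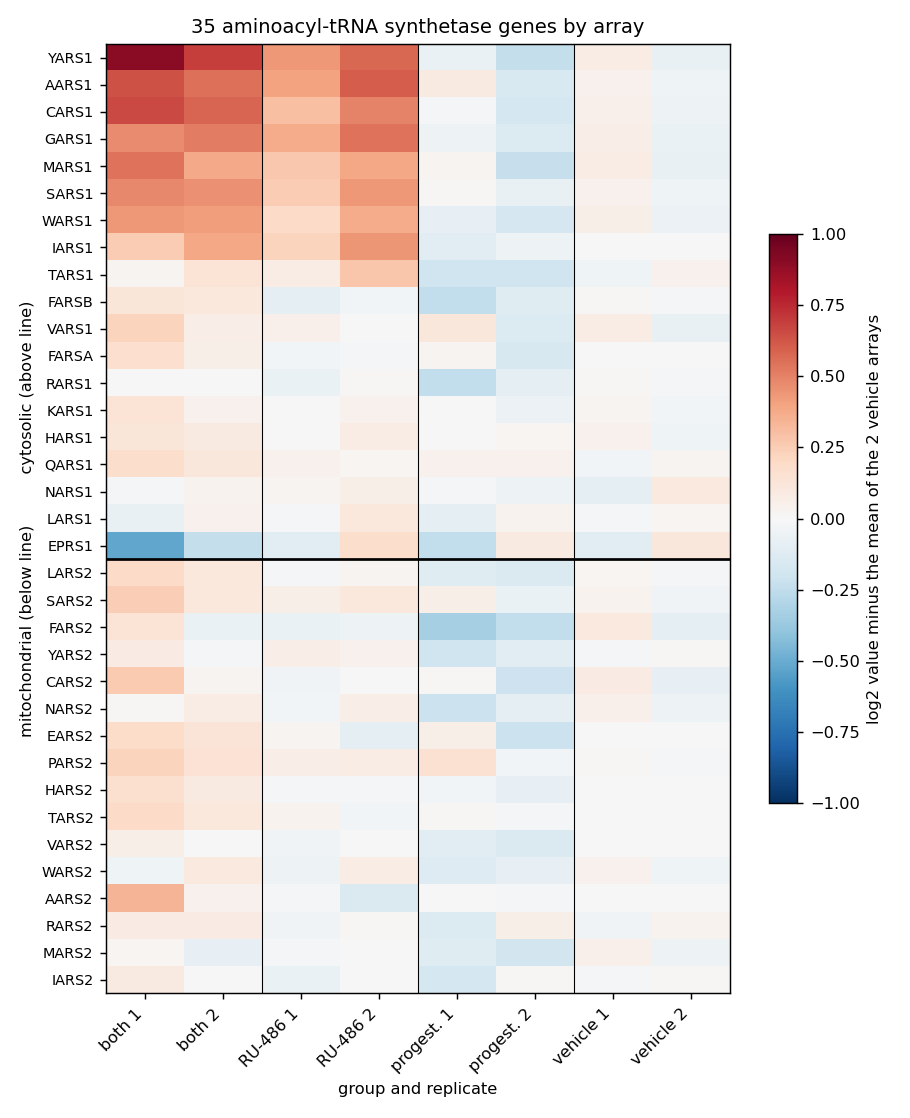
Log2 value minus the mean of the 2 vehicle arrays (colour) for the 35 genes (rows, cytosolic above the line and mitochondrial below it) on the 8 arrays (columns: combination, RU-486, progesterone, vehicle). The 8 cytosolic genes at the top, and some of the paler ones under them, are red on all 4 arrays with RU-486, EPRS1 is blue in the combination, and FARS2 is blue in both progesterone arrays.

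Whether the response to RU-486 differed with progesterone present was tested as an interaction, the combination minus progesterone less RU-486 minus vehicle. The median was 0.13 over the cytosolic genes, 0.17 over the mitochondrial genes and 0.01 over all genes. The cytosolic median was 0.08 without RU-486 replicate 1, 0.21 without RU-486 replicate 2 and 0.06 after quantile normalisation. 16 of 19 cytosolic genes, 16 of 16 mitochondrial genes and 52.4% of all genes lay above 0. No gene passed the adjusted threshold in limma (0%). FARSB, YARS1, FARS2 and LARS2 had an unadjusted p under 0.05 with a positive value, against 3.68% of all genes, and each had an adjusted p of 0.828. FARSB, a subunit of the phenylalanyl enzyme, had 12.29 and 12.27 in the combination and 12.07 and 12.14 after RU-486, against 11.92 and 12.04 after progesterone and 12.17 and 12.16 in vehicle. Its combination arrays were the highest, while those of RU-486 alone and progesterone alone lay below vehicle, and the interaction was 0.36. The interaction was 0.45 for YARS1, 0.38 for FARS2 and 0.27 for LARS2. Each of these values includes the progesterone pair, whose replicates were the least alike over all genes and for FARSB. For YARS1, FARS2 and LARS2 the combination replicates lay further apart than the progesterone ones.

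The combination was also set against RU-486 alone at the same dose. No gene passed in limma (0%), and 61.1% of all genes lay above 0, with 14 of 19 cytosolic and 14 of 16 mitochondrial genes. YARS1, by 0.29, and AARS2, by 0.27, had a higher mean with an unadjusted p under 0.05, against 3.18% of all genes, and EPRS1, by -0.41, a lower one, against 1.56%. The adjusted p was 0.769 for each. AARS2, the mitochondrial alanyl-tRNA synthetase, had 7.88 and 7.58 in the combination and 7.52 and 7.40 after RU-486, against 7.54 and 7.52 after progesterone and 7.54 and 7.54 in vehicle. Both combination arrays stood above the other 6 arrays, the second by little, and the gap between them, 0.30, was the widest of any synthetase gene in that group.

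The average progesterone effect, the mean of 4 arrays with progesterone minus that of 4 without, was near 0 for both classes. It averages 2 comparisons whose medians had opposite signs. Progesterone against vehicle had -0.08 over the cytosolic and -0.09 over the mitochondrial genes, and the combination against RU-486 had 0.09 and 0.10. The median of the average effect was 0.01 over the cytosolic and 0.01 over the mitochondrial genes and 0.03 over all genes. For this effect 11 of 19, 9 of 16 and 61.2% lay above 0. With single arrays left out the cytosolic median lay between -0.02 and 0.04. No gene passed in limma (0%), and 0 of the 35 had an unadjusted p under 0.05, against 3.2% of all genes with a higher and 1.83% with a lower mean. 0 of the 35 had separate arrays, against 2.02% of all genes upwards and 0.836% downwards. The smallest p-values among the cytosolic genes were those of TARS1 (-0.14 ± 0.07) and EPRS1 (-0.24 ± 0.12), and among the mitochondrial genes those of AARS2 (0.13 ± 0.08) and YARS2 (-0.09 ± 0.06; SE, adjusted p 0.722 in limma for each). limma's 95% interval included 0 for each of them.

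Partners of the synthetases were listed separately: scaffold proteins of the complex, the transfer RNA exporter, proofreading and repair enzymes and elongation factors. Of 20 such genes 15 were measured. Their median average RU-486 effect was 0.09, 11 of the 15 lay above 0, against 62.5% of all genes, and 0 passed. 2 of the 15 had an unadjusted p under 0.05 with a higher mean, against 6.53% of all genes. XPOT, which exports transfer RNA from the nucleus, had 10.94 and 10.86 in the combination and 10.95 and 11.21 after RU-486, against 10.56 and 10.72 after progesterone and 10.80 and 10.65 in vehicle. Its average RU-486 effect was 0.31 ± 0.08 (SE; adjusted p 0.395 in limma), and that of DTD1, which removes D-amino acids from transfer RNA, was 0.22 (adjusted p 0.424). Both had separate arrays.

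The other list holds 24 genes of amino acid shortage sensing and of the ATF4 axis, all measured. Its median average RU-486 effect was 0.38, 21 of the 24 lay above 0, against 62.5% of all genes, and 16 had an unadjusted p under 0.05 with a higher mean, against 6.53%. In limma 4 of the 24 passed, against 0.0326% of all genes: ASNS, which makes asparagine, rose by 1.14, NUPR1 by 1.01, CHAC1, which breaks down glutathione, by 0.96, and PCK2 by 0.94. The adjusted p was 0.0236 for ASNS, CHAC1 and PCK2 and 0.0479 for NUPR1. These calls were lost when either vehicle array, either combination array or RU-486 replicate 2 was left out, since 0 of all genes then passed, and 1 gene passed without RU-486 replicate 1. This list was chosen with those results known and is no independent evidence of their direction. ATF4 itself had 11.09 and 10.95 in the combination and 10.93 and 10.96 after RU-486, against 10.41 and 10.45 after progesterone and 10.58 and 10.54 in vehicle. Its average RU-486 effect was 0.49 ± 0.06 (SE; adjusted p 0.0794 in limma), within the range of the 8 cytosolic synthetase genes. EIF2AK4, the sensor of uncharged transfer RNA, differed by 0.01.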

How the data were processed

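The values are log2 expression of 33297 probe sets on a whole-transcript array, as the authors deposited them. The tools named in the submitters' processing notes are RMA, oligo and limma, with no versions or settings. RMA, as a method, equalises distributions between arrays and compresses differences of dim probe sets. Groups and replicate numbers come from the sample titles. Some descriptions give another number for the antiprogestin, read here as RU-486. The cell line field gives a shorter form of the name, read here as U373.

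The platform annotation gives 1 symbol for 19460 probe sets, several for 1754 and does not list 12083, and the highest-mean probe set of each symbol was kept (18417 genes, no filter). limma 3.58.1 in R 4.3.3 (lmFit, eBayes) was fitted to group means of all 8 arrays, with 4 residual degrees of freedom and 8 contrasts, each adjusted by Benjamini-Hochberg over all genes. Enzyme pairs were compared by exact permutation in scipy 1.17.1. The fit was tested on simulated data with independent replicates and, for each gene, the same spread in every group. That test does not cover the wider spread of the progesterone pair. Promoter windows and gene names come from RefSeq (GRCh38.p14). For arrays the number of arrays limits the precision.

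Members and lists were chosen with earlier results of these data known. Values on every array are given for the cytosolic genes with the 8 smallest p of the average RU-486 effect, the 5 such mitochondrial genes, and those with the smallest p for progesterone (2 per class) and for the interaction (1 per class). The values of TARS1, EPRS1 and AARS2 enter by that rule for progesterone. Alternatives were a replicate block, leaving out each array, quantile normalisation, median centring, the mean of a gene's probe sets, a filter on dim genes, array weights, and a trended and robust prior.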

Additional observations from a re-analysis of the deposited data

How the results depend on the processing

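The signs of the average RU-486 effect of the 8 cytosolic genes held under all alternatives, while the number of calls did not. Over all genes the average RU-486 effect gave 6 calls as reported, 12 without dim genes and 43 with the trended and robust prior, of which 1 and 6 were synthetase genes, against 0 as reported. The cause was not tested, except that fewer genes are tested without dim genes. Combination against vehicle gave 7 calls with array weights, RU-486 against vehicle 3, and combination against progesterone 17 with the trended prior, 3 of them synthetase genes, each against 0 as reported. The array weights were 0.34 for each progesterone array. Leaving out each array in turn gave 0 to 998 calls for the average RU-486 effect (0 to 8 synthetase genes), 0 to 1090 for combination against progesterone (0 to 7) and 0 to 1228 for progesterone against vehicle (0 synthetase genes). The highest counts came without progesterone replicate 1 (998 and 1090) and without progesterone replicate 2 (1228), and in each fit the lone array of a group is assumed to vary like the other groups. The average RU-486 effect gave 0 calls without either vehicle array, either combination array or RU-486 replicate 2, and 1 without RU-486 replicate 1.

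With the replicate number as a block, combination against vehicle gave 1 call, against 0 as reported, and no synthetase gene was called. Differences between replicates 1 and 2 correlated between groups with r from 0.20 to 0.51, but with 2 numbers and no label naming a shared batch the numbers are not taken as a pairing.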
